A study of Mus musculus with 56 samples.

Results

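NF-kB p65 binding in mouse bone marrow-derived macrophages after 1 hr of LPS was compared between cells pretreated with IL-4 for 24 hr (IL-4 PT/LPS) and cells left without IL-4 (ctrl/LPS). The comparison rests on 4 of the 56 samples of the series, the p65 chromatin immunoprecipitation sequencing (ChIP-seq) libraries labelled p65 under these treatments, with 2 independent biological replicates per group. The macrophages came from wild-type C57BL/6 mice aged 8 to 12 weeks and were differentiated for 6 days in L929 cell supernatant, a source of M-CSF. IL-4 was given at 20 ng/ml, and the ctrl/LPS cells received LPS alone. The labels give the LPS dose as 100 ng/ml and the study's methods as 100 nM. All of these cells were cultured, unsorted bone marrow progeny and carried no gene deletion. The p65 libraries without LPS (ctrl/ctrl and IL-4 PT/ctrl, 2 each) and libraries for phosphorylated RNA polymerase II (RNAPII) from the same 2 LPS conditions served as comparisons. The question was at which genomic regions, and near which genes, IL-4 pretreatment was followed by lower or higher p65 signal during the LPS response.

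p65, encoded by Rela, is the main transactivating subunit of NF-kB. In a resting macrophage it is held in the cytoplasm by inhibitors of the IkB family, and LPS, sensed by Toll-like receptor 4 with CD14 and MD-2, triggers their degradation so that p65 enters the nucleus and binds NF-kB motifs at promoters and enhancers of cytokine, chemokine and feedback genes. IL-4 acts through its receptor, Jak kinases and the transcription factor STAT6, and drives alternative macrophage activation.

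To show what lay under the regions with the clearest differences, sequences of mm10 around a transcription factor motif are given here for 3 regions with lower p65 signal after IL-4, 3 with higher signal and 4 enhancers for which the study designed primers and which held an NF-kB match. Each is read 5′ to 3′ from the plus strand, the capitals mark the motif, and the file's nearest gene names the region. The first 3 were lower in IL-4 PT/LPS. The Slc22a13b-ps and 9330111N05Rik regions lay in introns of other transcripts and the Egln2 region in the promoter.
Slc22a13b-ps, AP-1 motif, chr9:119266001-119266077: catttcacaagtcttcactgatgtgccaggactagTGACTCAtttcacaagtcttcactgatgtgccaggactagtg
Egln2, C/EBP motif, chr7:27167345-27167422: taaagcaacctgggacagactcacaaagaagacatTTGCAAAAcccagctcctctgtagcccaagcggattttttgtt
9330111N05Rik, C/EBP motif, chr13:81241368-81241445: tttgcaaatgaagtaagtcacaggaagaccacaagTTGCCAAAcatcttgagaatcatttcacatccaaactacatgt

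The next 3 were higher in IL-4 PT/LPS. The Btla region was intergenic, the Col27a1 region lay in the first intron and the Lrmp region in the promoter.
Btla, NF-kB motif, chr16:45297819-45297898: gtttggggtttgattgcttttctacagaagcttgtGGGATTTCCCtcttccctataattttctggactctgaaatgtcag
Col27a1, NF-kB motif, chr4:63216466-63216545: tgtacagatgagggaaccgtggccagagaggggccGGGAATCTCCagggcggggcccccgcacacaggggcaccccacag
Lrmp, AP-1 motif, chr6:145120807-145120883: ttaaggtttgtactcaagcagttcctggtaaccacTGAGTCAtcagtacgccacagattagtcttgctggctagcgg

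The 4 enhancers carried an NF-kB motif. The Il18 enhancer is listed under Sdhd, its nearest start site, and the Cxcl11 enhancer lies in an intron of another transcript.
Il1b enhancer, chr2:129380889-129380968: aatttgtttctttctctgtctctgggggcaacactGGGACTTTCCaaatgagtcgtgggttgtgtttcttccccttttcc
Tlr2 enhancer, chr3:83862920-83862999: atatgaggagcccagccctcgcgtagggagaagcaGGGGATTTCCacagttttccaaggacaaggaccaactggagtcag
Il18 enhancer, chr9:50590941-50591020: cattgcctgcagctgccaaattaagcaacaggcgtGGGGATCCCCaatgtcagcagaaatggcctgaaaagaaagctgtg
Cxcl11 enhancer, chr5:92374904-92374983: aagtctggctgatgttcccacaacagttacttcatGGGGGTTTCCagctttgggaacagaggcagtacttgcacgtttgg

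The Slc22a13b-ps region held 7 AP-1 matches over its 697 bp and none of the other motifs searched. In its printed stretch the same run of bases lies on both sides of the motif, as in a tandem repeat. The 7 matches may thus be copies of the same unit, and how uniquely reads mapped there is unknown. The Btla region held a STAT6 match beside its NF-kB match. These searches covered whole regions, and a match is a description of the letters only.

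Each p65 file lists peaks with a score, on the −log10 scale of the p or q value that the peak caller gave, so scores are compared as ratios or log2 differences and are not read counts. The ctrl/LPS libraries held 26305 and 26820 peaks with a median score of 8.81 in both, and the IL-4 PT/LPS libraries held 36738 and 38955 peaks with medians of 9.34 and 9.40. The number of peaks therefore moved with the treatment, and sequencing depth is unknown, so its part in the results was not tested. Without LPS, the p65 libraries held 9556 to 11026 peaks. At 7 NF-kB target genes used to check the labels (Nfkbia, Tnfaip3, Tnf, Il1b, Il6, Cxcl2 and Nlrp3), the summed p65 score of every LPS library was above that of every library without LPS for all 7. Nfkbia, the gene of IkB-alpha, had sums of 152 and 116 in ctrl/ctrl, 149 and 161 in IL-4 PT/ctrl, 275 and 261 in ctrl/LPS, and 413 and 441 in IL-4 PT/LPS. Promoter peaks of RNAPII-pS5 in the LPS libraries were present at 6 of 9 macrophage markers in at least 1 library, with Cd68 and Fcgr1 among those with a peak in all 4, and with none at Adgre1, Csf1r or Spi1. Of 38 markers of other cell types, 2 had such a peak in any library and 0 in all 4.

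Across the genome, IL-4 pretreatment was followed by p65 changes in both directions. Merging the peaks of the 4 LPS libraries gave 49264 regions, of which 18099 (36.7%) had a peak in all 4 and were tested. The median log2 score over these shared regions was 3.68 and 3.70 in ctrl/LPS and 4.09 and 4.2 in IL-4 PT/LPS, a shift of 0.46, and each library was centred on its own median before the test. With limma and a Benjamini-Hochberg adjusted p of at most 0.05, p65 was lower after IL-4 at 2031 regions (11.2% of those tested) and higher at 1454 (8.03%). The replicates did not overlap between the groups at 3483 of the 3485 called regions, against 58.4% of all shared regions. Replicates correlated more closely with each other (Pearson r across regions of 0.86 in ctrl/LPS and 0.88 in IL-4 PT/LPS) than with the other group (0.71 to 0.72), where regions are not independent replicates. With 2 libraries a group, an exact permutation test of a single region cannot give a two-sided p below 0.3333, so the calls depend on the spread that limma shares across regions. Without the trend of the spread with the level, 377 regions were lower and 427 higher. The counts became 1328 and 628 without IL-4 PT/LPS replicate 1, and 1234 and 632 without replicate 2 of that group.

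**Figure D1:**
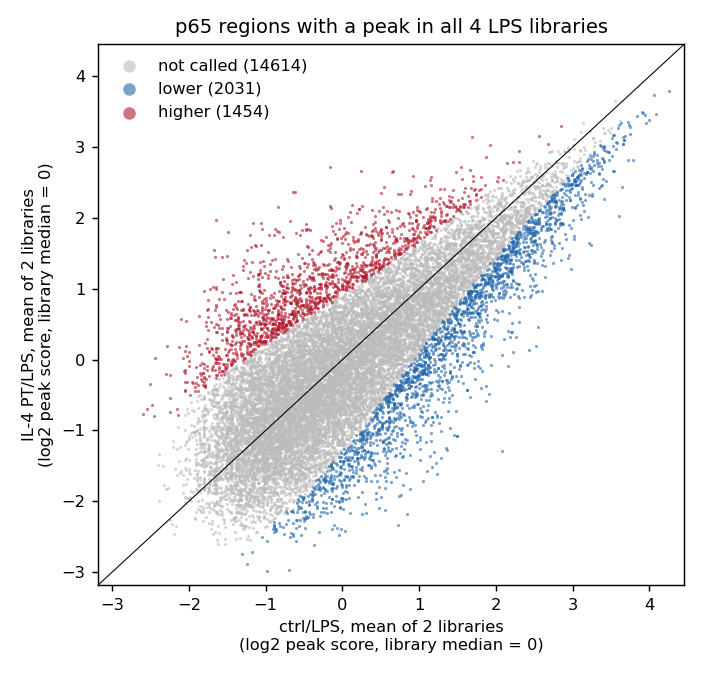
Mean log2 p65 peak score of each shared region in the 2 ctrl/LPS libraries (x axis) and the 2 IL-4 PT/LPS libraries (y axis), each library centred at 0, with the line of equal values. The 2031 regions called lower lie below the line, mostly at higher scores, and the 1454 called higher lie above it.

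The 2 sets differed in size and in place on the score scale. The regions called lower had a median change of −1.14 on the log2 scale, 1227 of them fell by more than 1, and 1621 (79.8%) were also lower in the scores as deposited, where the median ratio of IL-4 PT/LPS to ctrl/LPS was 0.623. The regions called higher had a median change of 1.39, 1179 of them rose by more than 1, and all 1454 were also higher in the deposited scores, with a median ratio of 3.58. With the regions ranked by mean score into 5 bins of equal size, 25.4% of the highest bin were called lower and 8.76% higher, whereas in the lowest bin these shares were 5.14% and 1.93%. The share of lower regions among all calls was 58.3% with median centring, 45.8% with quantile normalization, 45.5% with cyclic loess and 13.5% without centring. Of the 2031 regions called lower, 1347 were also called with quantile normalization and 550 without centring, and of the 1454 called higher, 1435 and 1454 were. The numbers of regions in each direction therefore depend on the scaling, while the regions described by name next were lower or higher in the deposited scores as well unless stated.

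The 20 regions described next were taken from called regions whose groups did not overlap, so the separation of their groups is part of the choice. The 10 regions with the smallest p among those called lower were named for Slc22a13b-ps, Egln2, 9330111N05Rik, Il1b, Map10, Ppm1h, Sema4c, Tlk1, Fyb and Marcks, and 5 of the 10 were intergenic, 4 intronic and 1 in a promoter. The Slc22a13b-ps region (chr9:119265687-119266383) had p65 scores of 159 and 155 in ctrl/LPS and 72.8 and 71.3 in IL-4 PT/LPS, a log2 change of −1.58 ± 0.13 (SE; adjusted p = 1.32e-10). Egln2 encodes an oxygen-sensing prolyl hydroxylase, and its promoter region, at −380 bp from the start site (chr7:27166875-27167517), had scores of 161 and 163 against 95.1 and 97.1 (−1.21 ± 0.12, adjusted p = 3.93e-09). At both regions the replicates of each group lay within a few score units of each other. Il1b encodes interleukin-1 beta, a principal inflammatory cytokine, and the region at −9607 bp from its start site (chr2:129380149-129381390) had scores of 127 and 113 in ctrl/LPS and 60.7 and 50.6 in IL-4 PT/LPS (−1.57 ± 0.16, adjusted p = 6.42e-09). The largest change of the set, −3.37 ± 0.34, was at the 9330111N05Rik region, where scores were 55.1 and 54.5 against 7.09 and 7.44. All 10 were lower in the deposited scores without any centring, by 0.52 to 2.92 on the log2 scale.

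The remaining 6 lower regions spanned different levels. Fyb encodes an adaptor of immune receptor signalling, and the region at −10.6 kb held the highest scores of the set, 182 and 175 in ctrl/LPS against 126 and 123 in IL-4 PT/LPS. Sema4c encodes a semaphorin, and its region fell from 90.5 and 61.5 to 18.8 and 21.6. At Marcks, which encodes a protein kinase C substrate abundant in macrophages, a region at −141 kb had scores of 74.8 and 64.6 against 23.9 and 15.9. Regions near Map10, Ppm1h and Tlk1 had ctrl/LPS scores between 72.0 and 129 and IL-4 PT/LPS scores between 23.9 and 63.4. The log2 changes of these 6 ran from −2.34 at Sema4c to −0.97 at Fyb. Of the 10 lower regions, 6 already had a p65 peak in both ctrl/ctrl libraries.

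The 10 regions with the smallest p among those called higher were named for Btla, Col27a1, Lrmp, Otos, Slc30a4, Il31ra, Lpcat1, 4930546C10Rik, Rps27l and Pde3b. These sites had low p65 scores with LPS alone. The Btla region, 73.6 kb from the gene of an inhibitory lymphocyte receptor (chr16:45297651-45298192), had scores of 13 and 10.2 in ctrl/LPS and 110 and 125 in IL-4 PT/LPS, a log2 change of 2.89 ± 0.25 (adjusted p = 1.47e-10). In the first intron of Col27a1, a fibrillar collagen gene (chr4:63216236-63216800), the scores were 7.84 and 8.70 against 94.3 and 88.0 (3.01 ± 0.29, adjusted p = 3.22e-09). The promoter region of Lrmp, a gene of a lymphoid-restricted membrane protein (chr6:145120683-145121352), had 7.23 and 9.75 against 86.7 and 96.2 (2.99 ± 0.29, adjusted p = 3.24e-09). All 3 had IL-4 PT/LPS scores several times those with LPS alone. The largest change, 3.62 ± 0.38, was in an intron of Il31ra, a cytokine receptor subunit, with scores of 5.31 and 3.20 against 68.8 and 70.4.

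Slc30a4 encodes a zinc transporter, and the region at −9.48 kb had scores of 21.4 and 19.5 in ctrl/LPS and 109 and 116 in IL-4 PT/LPS. This region already had scores of 43.2 and 46.5 in IL-4 PT/ctrl and no peak in ctrl/ctrl, so p65 was found there after IL-4 without LPS. Pde3b encodes a cyclic nucleotide phosphodiesterase, and its intronic region had 4.03 and 5.25 against 54.6 and 70.0. Lpcat1 encodes an enzyme of phospholipid remodelling, and its region had 5.45 and 9.53 against 70.9 and 87.3. The Otos, 4930546C10Rik and Rps27l regions had ctrl/LPS scores between 4.79 and 24.5 and IL-4 PT/LPS scores between 60.7 and 116. Of the 10 higher regions, 9 had no peak in either ctrl/ctrl library and 6 had a peak in both IL-4 PT/ctrl libraries. Within 200 bp at their centres, 4 of the 10 higher regions (Btla, Slc30a4, Lpcat1 and 4930546C10Rik) and 0 of the 10 lower regions held a STAT6 motif, and an NF-kB motif was present in 2 of each set.

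**Figure D2:**
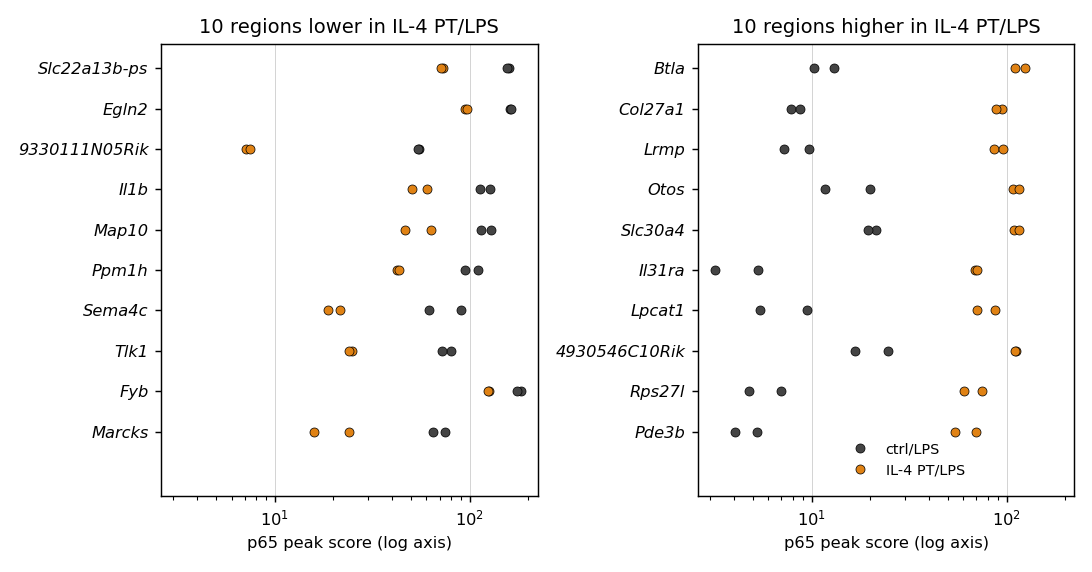
p65 peak scores on a log axis, as deposited, of the 10 lower (left) and 10 higher (right) regions with the smallest p, 1 point per library. Regions were chosen among those whose groups do not overlap, and the higher regions start from ctrl/LPS scores of 24.5 or less.

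Regions with a peak in both libraries of 1 group and in neither of the other have no score to compare and were counted. There were 7568 such regions in IL-4 PT/LPS and 1083 in ctrl/LPS, and their median scores were low in both, 7.22 and 5.62. Of these, 335 IL-4 PT/LPS regions and 5 ctrl/LPS regions had a mean score of at least 20. The highest in IL-4 PT/LPS lay at −8164 bp from Edn1, the gene of endothelin-1, with scores of 71.1 and 81.1. Next came regions near Itga1 (68.9 and 77.3), an integrin subunit gene, near Cyp1b1 (76.4 and 59.7), a cytochrome P450 gene, near Dock10 (61.2 and 58.8) and near Ear4 (53.6 and 54.2). The highest in ctrl/LPS lay at −1134 bp from Ier2, an immediate early gene, with 31.4 and 33.9. The others were near Bcl6 (32.5 and 21.2), a transcriptional repressor gene that counters NF-kB target expression, Cdk14 (28.6 and 23.8), Irs2 (22.3 and 26.3) and Cd2ap (21.3 and 26.6). A list with more peaks holds more group-only regions, and leaving out 1 library of a group loosened the requirement: the IL-4 PT/LPS count became 13530 without replicate 1 and 12002 without replicate 2 of that group, and the ctrl/LPS count became 2973 without replicate 1 and 2871 without replicate 2 of its own group. Leaving out IL-4 PT/LPS replicate 1 or 2 gave ctrl/LPS counts of 1798 and 2110.

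The lower and higher regions differed in what was bound there before LPS. A p65 peak in both ctrl/ctrl libraries was present at 51.3% of the lower regions, 28.3% of the regions not called and 13% of the higher regions. In IL-4 PT/ctrl, these shares were 41.3%, 30.4% and 31.4%. A peak of PU.1, the factor that marks macrophage enhancers, was present in untreated cells at 70.7% of lower, 60.9% of not called and 36.2% of higher regions. For p300, a histone acetyltransferase found at active enhancers, the shares were 84.0%, 76.8% and 58.5%, and for H3K27Ac, the acetylation mark of active regulatory regions, they were 49.7%, 50.2% and 32.5%. Promoters made up 8.57% of the lower and 3.71% of the higher regions. These shares are descriptions, and since the lower regions also had higher scores in ctrl/LPS by construction, the part of signal level in them was not tested.

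Motifs were counted in the 200 bp at the centre of each region, on both strands, as the NF-kB motif by name, TTC and GAA with 4 bases between them for STAT6 and with 3 for other STAT factors, TGANTCA for AP-1, GAGGAAG for PU.1, 2 copies of GAAA with 2 bases between them for IRF and TTGCNNAA for C/EBP. A window could hold several motifs and then counted for each. The STAT6 motif was found in 5.87% of the lower, 7.22% of the not called and 14.4% of the higher regions, against 7.64% of all tested regions. The NF-kB motif was found in 17.0%, 12.3% and 16.4%, against 13.1% of all. AP-1 motifs were in 26.4%, 26.5% and 21.3%, and C/EBP motifs in 20.5%, 16.1% and 15.3%. The other STAT motif was in 13.1%, 8.90% and 9.90%, the PU.1 motif in 20.3%, 20.3% and 17.2%, and the IRF motif in 6.60%, 7.35% and 5.50%. Among regions with peaks in 1 group only, the STAT6 motif was in 5.27% of those in ctrl/LPS and 11.7% of those in IL-4 PT/LPS, and the NF-kB motif in 6.84% and 11.5%.

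The 1 hr IL-4 experiment of the series, made in other libraries and without LPS, gave PU.1, p300 and H3K27Ac at the same regions. At the higher regions, the median log2 PU.1 value, centred per library, was 0.51 ± 0.0049 (SD, n = 2) in untreated cells and 0.88 ± 0.029 after IL-4. For p300 it was 0.62 ± 0.070 and 1.02 ± 0.048, and for H3K27Ac −0.36 ± 0.0065 and 0.04 ± 0.015. These medians cover only the 489, 833 and 432 of the 1454 higher regions with a peak in all 4 libraries of PU.1, p300 and H3K27Ac, and the replicates of the class medians did not overlap. Taken region by region, the median change after 1 hr of IL-4 was smaller, 0.22 for PU.1, 0.13 for p300 and 0.010 for H3K27Ac. At the lower regions, PU.1 was 1.12 ± 0.0024 and 1.13 ± 0.045, p300 1.27 ± 0.097 and 1.22 ± 0.0019, and H3K27Ac 0.71 ± 0.014 and 0.60 ± 0.0019. There the class medians of PU.1 and p300 differed by less than the larger SD of the 2 groups. H3K27Ac was lower after IL-4, as it was at the regions not called (0.56 ± 0.0084 and 0.50 ± 0.0024). Region by region, the median change at the lower regions was −0.0033 for PU.1, −0.16 for p300 and −0.15 for H3K27Ac. At the regions not called it was 0.0040, −0.11 and −0.10. The exact permutation test of such class medians cannot go below 0.3333, so no p is given. Across single regions, the p65 change was only weakly related to these changes, with Pearson r of 0.10 for H3K27Ac (n = 8026 regions), 0.10 for p300 (n = 13612) and 0.09 for PU.1 (n = 10201), over regions that share the same libraries.

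**Figure D3:**
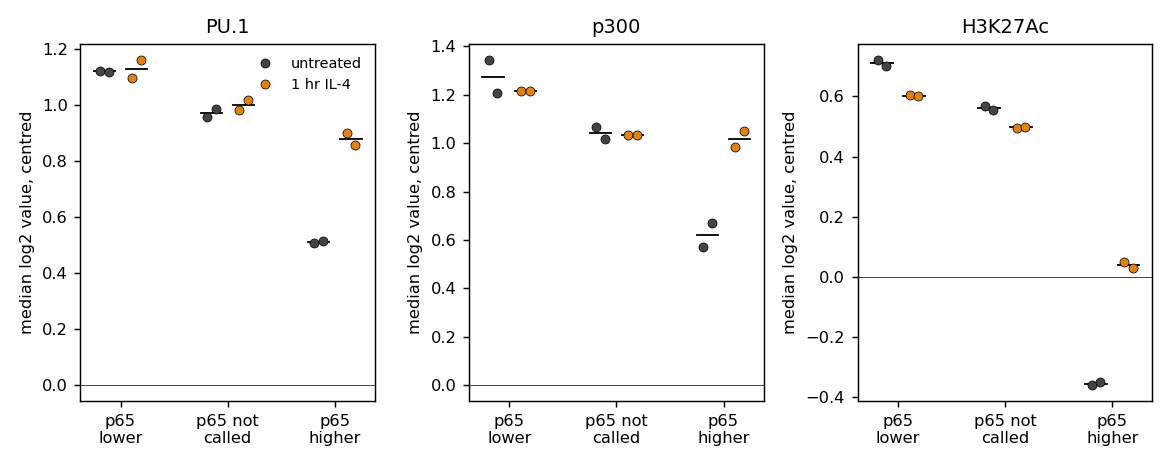
Median log2 value (centred per library) of PU.1, p300 and H3K27Ac at p65 regions called lower, not called or higher in IL-4 PT/LPS, in untreated cells and after 1 hr of IL-4 (1 point per library, bars are means of 2). At the higher regions the class medians after IL-4 had means of 0.88, 1.02 and 0.04, above the untreated level, while the median change per region was 0.22, 0.13 and 0.010.

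RNAPII was measured in separate libraries of the same treatments, with antibodies to the serine 5 form of initiation (RNAPII-pS5) and the serine 2 form of elongation (RNAPII-pS2). Most called p65 regions had no called RNAPII change or lacked an RNAPII peak in some library. Where RNAPII was called at a called p65 region, it mostly had the direction of the p65 change. Most RNAPII calls, however, lay at p65 regions not called. Each p65 region took the highest score of an RNAPII peak overlapping it, so the same RNAPII peak could count for several p65 regions. RNAPII-pS5 had a peak in all 4 LPS libraries at 757 of the 2031 lower and 252 of the 1454 higher p65 regions. At the lower p65 regions, RNAPII-pS5 was lower at 160 (21.1%) and higher at 11, against 9.03% lower and 4.25% higher over all p65 regions tested. At the higher p65 regions it was higher at 38 (15.1%) and lower at 3. At the 3950 p65 regions not called it was lower at 285 (7.22%) and higher at 162 (4.10%), of 448 and 211 over all. The median log2 changes were −0.56, −0.13 and 0.37 at lower, not called and higher p65 regions. These RNAPII-pS5 calls needed both ctrl/LPS libraries and were lost in both directions when either was left out. They were not lost when either IL-4 PT/LPS library was left out. Each such fit rests on a lone library in that group.

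For RNAPII-pS2 the number of regions with a peak in all 4 libraries was larger, 1320 lower and 713 higher p65 regions. At the lower p65 regions, RNAPII-pS2 was lower at 379 (28.7%) and higher at 7, against 9.13% lower and 5.84% higher over all. At the higher p65 regions it was higher at 236 (33.1%) and lower at 3. At the 8749 p65 regions not called it was lower at 602 (6.88%) and higher at 387 (4.42%), of 984 and 630 over all. The class median of centred log2 RNAPII-pS2 score went from 0.97 ± 0.019 (SD, n = 2) in ctrl/LPS to 0.30 ± 0.0099 in IL-4 PT/LPS at the lower regions, and from −0.12 ± 0.013 to 0.72 ± 0.022 at the higher regions. At regions not called it was 0.32 ± 0.0086 and 0.23 ± 0.019. Without ctrl/LPS replicate 2 the number of p65 regions with lower RNAPII-pS2 was 654 in place of 984. Across regions, the p65 change correlated with the RNAPII-pS2 change at Pearson r = 0.50 (n = 10782 regions) and with the RNAPII-pS5 change at 0.29 (n = 4959), as a description over regions of the same libraries.

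**Figure D4:**
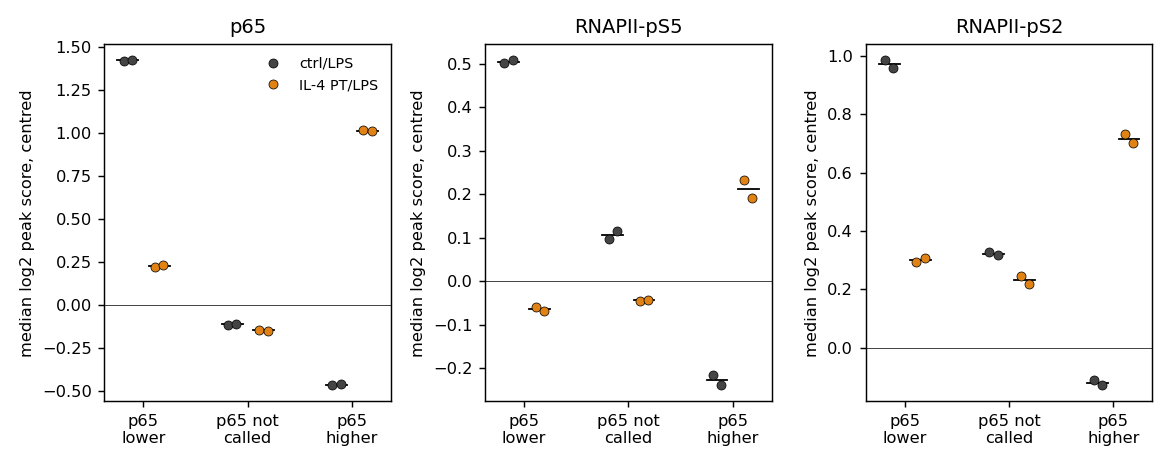
Median centred log2 peak score of p65, RNAPII-pS5 and RNAPII-pS2 in ctrl/LPS and IL-4 PT/LPS at p65 regions called lower, not called or higher (1 point per library, bars are means of 2). The p65 panel shows the selection itself, and the RNAPII-pS2 medians went from 0.97 to 0.30 at the lower and from −0.12 to 0.72 at the higher regions.

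Among single regions, the Map10 region had RNAPII-pS5 scores of 37.6 and 34.3 in ctrl/LPS and 11.0 and 9.15 in IL-4 PT/LPS (log2 change −1.98, adjusted p = 3.82e-04 by limma). The Ppm1h region had RNAPII-pS2 scores of 54.5 and 48.8 against 17.3 and 15.9 (−1.67, adjusted p = 4.16e-04), and the Il1b region 36.4 and 25.3 against 14.5 and 9.45 (−1.41, adjusted p = 0.00997). RNAPII-pS5 at the Il1b region, with 16.9 and 20.7 against 13.7 and 10, was not called (−0.81, adjusted p = 0.113). At the Slc22a13b-ps region, where p65 had the smallest p, RNAPII-pS2 scores of 13.3 and 8.79 against 11.7 and 10 overlapped. At the Slc30a4 region, RNAPII-pS5 scores were 5.99 and 9.63 against 29.0 and 32.1 (1.87, adjusted p = 0.00199), whereas RNAPII-pS2 was not called there (0.39, adjusted p = 0.32). At the Il31ra region, RNAPII-pS2 had no peak in either ctrl/LPS library and scores of 49.5 and 46.4 in IL-4 PT/LPS. Of the 10 lower regions RNAPII-pS5 was tested at 6 and lower at 2, RNAPII-pS2 was tested at 7 and lower at 5, and of the 10 higher regions only 2 had RNAPII-pS2 in all 4 libraries.

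Without LPS, the same 2 sets already differed after IL-4. A p65 peak in all 8 libraries was found at 3971 merged regions, of which 159 (4.0%) were lower and 135 (3.40%) higher in IL-4 PT/ctrl than in ctrl/ctrl. Of 3980 LPS-shared regions that could be placed in this set, 747 belonged to the lower and 166 to the higher set under LPS. The median change without LPS was −0.32 at the former and 0.73 at the latter, against 0.04 at regions not called. Without LPS, 92 of the 747 were lower and 6 higher, and 30 of the 166 were higher and 3 lower. Neither ctrl/ctrl library could be left out without losing these calls, since limma then called 0 regions, with 235 and 236 lower and 276 and 293 higher at an unadjusted p under 0.05. Without IL-4 PT/ctrl replicate 1 or 2, 88 and 73 regions were higher. The changes with and without LPS, which share no library, correlated across regions at Pearson r = 0.33 (n = 3980).

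The IL-4 effect itself differed between the conditions with and without LPS, being more negative with LPS at 37 regions (0.932%) and more positive at 28 (0.705%). At the Rgl1 region, near the gene of a Ral guanine nucleotide exchange factor, scores were 48.4 and 45.9 in ctrl/ctrl and 122 and 95.6 in IL-4 PT/ctrl, but 158 and 173 in ctrl/LPS and 155 and 148 in IL-4 PT/LPS. Signal there was thus higher after IL-4 without LPS and not with LPS (interaction −1.78 ± 0.19, adjusted p = 1.16e-05 by limma). At the Nek6 region, named for a mitotic kinase gene, the pattern was opposite, with 39.6 and 33.7 in ctrl/ctrl, 4.67 and 4.51 in IL-4 PT/ctrl, 67.0 and 86.0 in ctrl/LPS and 73.3 and 67.9 in IL-4 PT/LPS (2.42 ± 0.39, adjusted p = 0.00132). Leaving out IL-4 PT/ctrl replicate 1 gave 75 and 74 such regions, and replicate 2 gave 78 more positive ones. Leaving out any of the 4 LPS libraries lowered the counts to between 7 and 10 and between 4 and 6, and leaving out either ctrl/ctrl library left 14 more positive regions.

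By gene, the scores of all peaks that the files assign to a gene were summed, and 8303 of the 13651 genes with any peak had one in all 4 libraries. Summed p65 signal was lower after IL-4 for 1464 genes (17.6%) and higher for 886 (10.7%) after centring. The libraries differed in what was summed, with 24503 and 24881 peaks covering 8883 and 8921 kb in ctrl/LPS and 32300 and 33847 peaks covering 11860 and 12530 kb in IL-4 PT/LPS, and a mean score per peak of 16.1 and 16.2 against 17.1 and 17.6. This moved the median gene by 0.67 on the log2 scale, so a gene called lower fell, or rose by less than the median gene. Without centring, 921 (62.9%) of the genes called lower and all 886 called higher kept their direction, and 166 were called lower and 3197 higher. Gene calls also rested on the trend of the spread, without which 32 genes were lower and 75 higher. Without IL-4 PT/LPS replicate 1, 460 genes were higher, and without replicate 2, 463 were higher and 962 lower. Both kinds of region were found near 259 genes, 16.2% of the 1599 genes with a lower region and 21.4% of the 1211 with a higher one.

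Among the 10 genes with the smallest p in each direction, Hivep2, which encodes a zinc finger protein that binds kB-like sites, had summed scores of 712 and 734 in ctrl/LPS and 685 and 698 in IL-4 PT/LPS (−0.74 ± 0.061). Elmo1, an engulfment adaptor gene, had 504 and 541 against 457 and 544, groups that overlap in the deposited sums although the centred change was −0.74 ± 0.070. Lipg, the endothelial lipase gene, had 222 and 204 against 148 and 141 (−1.23 ± 0.12). Lpp, Erdr1, 9330111N05Rik, Slc22a13b-ps, Poc1b, Egln2 and Pik3r6 completed the lower set, whose adjusted p ran from 3.23e-07 to 1.44e-06, and all 10 were below 0 without centring. For Lpp, Hivep2 and Elmo1 that change was only −0.03, −0.06 and −0.07, with adjusted p of 0.751, 0.552 and 0.598, and the deposited sums of Lpp overlapped between groups, with 835 and 886 against 825 and 856. Among the higher genes, Inhba, which encodes the activin beta A subunit, had 82.3 and 79.4 against 393 and 423 (1.66 ± 0.11) with 5 peaks in both ctrl/LPS libraries and 21 and 22 in IL-4 PT/LPS. Klf9, a Krüppel-like factor gene, had 14.2 and 15.4 against 169 and 152 (2.77 ± 0.23), and Cyp1b1 had 36.8 and 41.8 against 252 and 237. The others were 4930546C10Rik, Otos, Gm16793, Il31ra, 4933417E11Rik, Lrmp and 4930401O12Rik, with log2 changes from 1.38 to 3.15.

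The lists that follow are read against the 17.6% lower and 10.7% higher of all genes, and their tested regions against 11.2% and 8.03% of all regions. Where genes of a list are counted as lower without centring, only the sign of the change is meant, not a call. Of 11 tested genes of the LPS receptor and Toll-like receptors, 4 were lower (Cd14, Tlr2, Tlr7 and Tlr9) and Ly96, which encodes MD-2, was higher, while of their 35 tested regions 5 were lower and 6 higher. The median of this list was −0.14, against −0.15 over all genes. Tlr9, the receptor for unmethylated DNA, had sums of 97.7 and 86.8 in ctrl/LPS and 84.8 and 70.0 in IL-4 PT/LPS (−0.93 ± 0.18, adjusted p = 8.44e-04). Its groups did not overlap, but without centring it was not called (−0.26, adjusted p = 0.267 by limma). Cd14 was not called without centring either (−0.056, adjusted p = 0.781 by limma). Tlr2, the lipopeptide receptor, had 289 and 308 against 328 and 358, so that its centred change of −0.47 turned into 0.20 without centring. Of 14 adaptor and kinase genes, 7 were lower and 0 higher, although 2 of the 7 were lower without centring, and of their 59 regions 10 were lower and 2 higher. Irak3, which encodes a kinase-like inhibitor of the pathway, had 177 and 196 against 123 and 105 (−1.38 ± 0.14, adjusted p = 1.73e-06). Irak2, a signalling kinase, had 185 and 192 against 166 and 179 (−0.80 ± 0.11, adjusted p = 3.59e-05). Without centring the Irak2 change was −0.13 and was not called (adjusted p = 0.432 by limma).

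Of the 5 NF-kB subunit genes, Nfkb1 and Nfkb2 were lower after centring but had changes of 0.40 and 0.28 without it, and 0 were higher, while of their 22 regions 3 were lower and 4 higher. Of 14 inhibitor and feedback genes, 6 were lower and 3 higher, but 1 of the 6 was lower without centring, and of their 93 regions 17 were lower and 8 higher. Bcl3, an atypical IkB gene, had 131 and 154 in ctrl/LPS against 92.1 and 112 in IL-4 PT/LPS (−1.16 ± 0.14, adjusted p = 1.17e-05). Nfkbid, another nuclear IkB gene, had 7.01 and 2.40 against 34.2 and 24.3 (2.14 ± 0.57, adjusted p = 0.0089). The Nfkbid sums rested on 1 peak in each ctrl/LPS library against 4 and 3 in IL-4 PT/LPS, and the 1 region of this gene shared by all libraries was not called (0.61, adjusted p = 0.469). Nfkbiz, the gene of IkB-zeta, had 692 and 712 against 696 and 781, a centred change of −0.60 that became 0.07 without centring. Nfkbia and Tnfaip3 were not called, at 0.00 and −0.12.

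Among 22 tested cytokine genes, 9 were lower and 3 higher, and 4 of the 9 were lower without centring. Among 19 chemokine genes, 7 were lower, 3 of them also without centring, and 3 were higher. Of the 86 cytokine regions 15 were lower and 8 higher, and of the 61 chemokine regions 9 were lower and 7 higher. Ebi3, a subunit of IL-27 and IL-35, had sums of 76.8 and 79.2 in ctrl/LPS and 56.7 and 50.6 in IL-4 PT/LPS (−1.21 ± 0.19, adjusted p = 1.87e-04). Ccl7, a monocyte chemoattractant gene, had 62.5 and 48.3 against 38.1 and 25.3 (−1.50 ± 0.28, adjusted p = 7.74e-04). Neither gene's groups overlapped, whereas the sums of Il1b overlapped, with 354 and 329 against 323 and 366, and its centred change of −0.66 became 0.01 without centring. Il12b and Ccl5 were likewise lower only after centring, with changes of 0.11 and 0.17 without it. Ccl24, an eosinophil chemoattractant gene that IL-4 is known to induce, had 52.8 and 41.4 against 144 and 172 (1.08 ± 0.17, adjusted p = 1.83e-04), and Tnfsf15 had 110 and 104 against 280 and 285 (0.73 ± 0.11, adjusted p = 1.37e-04). With intergenic peaks left out, the Ccl24 and Tnfsf15 changes became −0.15 and −0.33.

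Of 13 inflammasome genes, 5 were lower (Nlrp3, Nlrp1b, Nlrc4, Mefv and Casp4) and 0 higher, with 2 of the 5 lower without centring, and of their 30 regions 7 were lower and 0 higher. Nlrp1b, an inflammasome sensor gene, had 66.9 and 61.9 against 44.0 and 53.7 (−1.08 ± 0.21, adjusted p = 8.64e-04). Without centring its change was −0.41 and was not called (adjusted p = 0.148 by limma). Nlrp3 had 213 and 195 against 222 and 230 and Mefv 255 and 252 against 278 and 309, and both turned above 0 without centring, to 0.15 and 0.21. Of 13 C-type lectin and Fc gamma receptor genes, 7 were lower and 0 higher, and the change of 6 of the 7 stayed below 0 without centring. Clec4a1, Clec4d, Fcgr1 and Fcgr4, those with the smallest p, were then not called (adjusted p by limma of 0.420, 0.725, 0.305 and 0.173). Of the 37 regions of this list, 8 were lower and 1 higher. Fcgr4, an activating Fc receptor gene, had 50.9 and 69.7 against 37.0 and 53.0 (−1.10 ± 0.23, adjusted p = 0.00197), where the groups overlapped slightly in the deposited sums. Of the 2 tested regions of Fcgr4, 0 were lower and 0 higher. This list had the lowest median of the 18 lists, −0.70, against −0.15 over all genes tested.

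Of 21 tested genes linked to IL-4 and alternative activation, 6 (28.6%) were higher and 4 (19%) lower, against 10.7% and 17.6% of all genes. Of their 86 regions, 10 were lower and 10 higher. Edn1, a gene known to respond to IL-4 in macrophages, had 311 and 320 in ctrl/LPS and 745 and 805 in IL-4 PT/LPS (0.62 ± 0.068, adjusted p = 4.71e-06). Irf4, a transcription factor of alternative activation, had 108 and 103 against 238 and 244 (0.52 ± 0.12, adjusted p = 0.00290), although with peaks within 10 kb of the start site alone its change was −0.40. Tgm2 and Pparg, both used as markers of alternative activation, were lower at −0.62 and −0.59 but at 0.05 and 0.08 without centring. Of 8 genes of lipid sensing and cholesterol efflux, 3 were higher (Rxra, Mylip and Lpl) and Abca1 was lower, with a change of 0.22 without centring. Of the 21 regions of this list, 3 were higher and 3 lower, and none of the higher ones belonged to Rxra, with 2 peaks in both ctrl/LPS libraries against 7 and 6, or to Mylip. Lpl, the lipoprotein lipase gene, had 69.7 and 55.1 against 201 and 225 (1.11 ± 0.15, adjusted p = 3.63e-05).

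In the remaining lists, 6 of 13 AP-1 family genes, 8 of 19 interferon and IRF genes and 4 of 14 genes of TNF superfamily receptors and cell death were lower, and 0 were higher in these 3 lists, with 3 genes of each list lower without centring. By region, 10 of 51 AP-1 family regions were lower and 1 higher, 4 of 55 interferon and IRF regions were lower and 5 higher, and 9 of 53 regions of the TNF superfamily list were lower and 5 higher. Batf2 had 80.2 and 83.1 against 66.1 and 65.4, and Mx2, an interferon-induced antiviral gene, 46.6 and 49.4 against 25.4 and 39.4, each without overlap. Of 10 Stat and Jak genes, 5 were lower and Stat5a was higher. Of 9 MAP kinase phosphatase genes, 4 were lower and 2 higher, where Dusp4 had 37.1 and 29.2 against 164 and 163 (1.64 ± 0.19, adjusted p = 6.54e-06) and Dusp16 had 117 and 145 against 95.0 and 78.0 (−1.27 ± 0.16, adjusted p = 2.46e-05). Of 5 genes of cytokine mRNA decay, 0 were lower and Zfp36l2 was higher. Of 8 prostaglandin and nitric oxide genes, 3 were lower and 1 higher. In a list not linked to the response, the cytosolic ribosomal protein genes, 2 of 9 were lower and 1 higher. The share of lower genes was above that of all genes in 16 of the 18 lists, and the median change was below 0 in 17 lists with centring and in 1 without it.

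**Figure D5:**
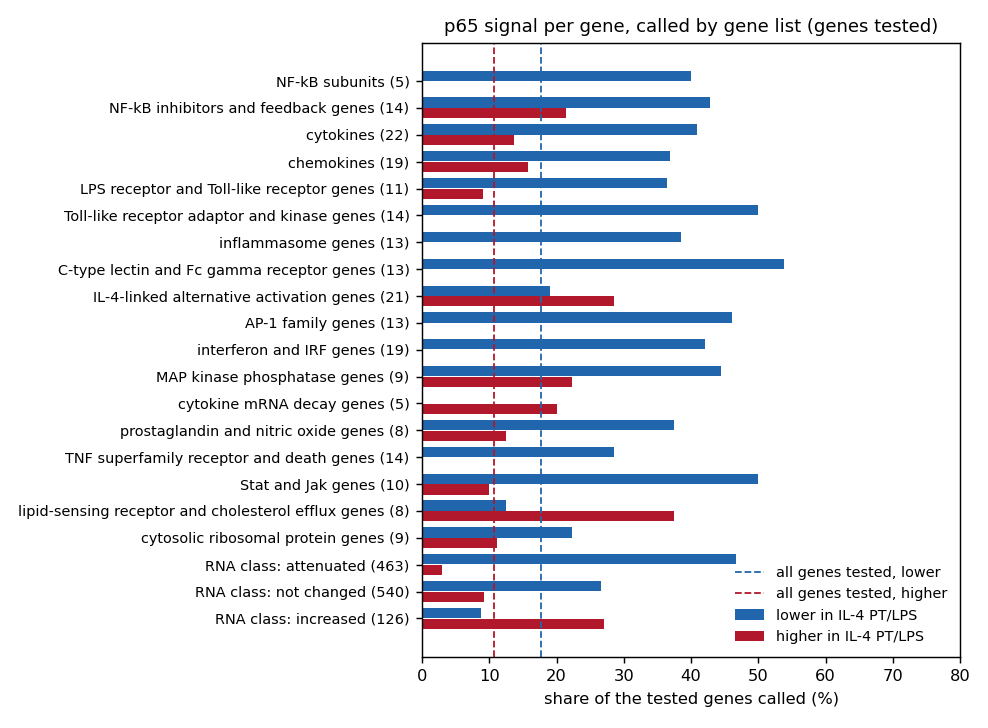
Share of the tested genes of each list (number tested in parentheses) with lower (blue) or higher (red) summed p65 signal in IL-4 PT/LPS after centring, with dashed lines at the shares over all genes tested, 17.6% and 10.7%. RNA class means the study's grouping of LPS-induced genes, in which the attenuated class has 46.7% lower and the increased class 27% higher.

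The study sorted LPS-induced genes by how IL-4 pretreatment changed their RNA after LPS, in RNA-seq libraries not used here, into attenuated, not changed and increased classes. That RNA was taken after a longer LPS exposure than the 1 hr of the p65 libraries. The p65 signal followed this order. Of 463 attenuated genes tested, 216 (46.7%) had lower and 14 (3.02%) higher summed p65. For the 540 genes not changed, the numbers were 144 (26.7%) and 50 (9.26%), and for the 126 increased genes they were 11 (8.73%) and 34 (27%). The medians were −0.43, −0.24 and 0.20 with centring, and 0.24, 0.43 and 0.87 without it. Counted by region, 316 of 1753 regions of attenuated genes were lower and 82 higher, against 227 and 147 of 1683 for genes not changed and 29 and 63 of 400 for increased genes. At the level of regions the lower share of the attenuated class was 18%, against 11.2% of all.

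Enhancers for which the study designed primers were placed in mm10 by those primers, and 17 tested p65 regions lay within 1000 bp of 1 of these 16 enhancers. Of these regions 8 were lower and 1 higher, against 11.2% and 8.03% of all tested. The study chose enhancers for primers in part from its ChIP-seq data on these samples, so this count is not independent evidence of a direction. The Irak3 intronic enhancer, 10.1 kb into the gene (chr10:120191144-120191608), had p65 scores of 84.7 and 102 in ctrl/LPS and 52.1 and 42.5 in IL-4 PT/LPS (−1.44 ± 0.18, adjusted p = 3.82e-07), and a neighbouring region had 26.1 and 24.8 against 6.40 and 9.76. The Il18 enhancer, near the gene of another inflammasome-processed cytokine, had 58.6 and 67.8 against 28.6 and 48.4 (−1.21 ± 0.22, adjusted p = 1.14e-04). The Fcgr1 enhancer upstream of the high-affinity IgG receptor gene had 26.8 and 13.9 against 5.01 and 7.56 (−2.10 ± 0.47, adjusted p = 0.00127), and RNAPII-pS5 there had 41.9 and 48.9 against 20.0 and 21.7, while RNAPII-pS2 was not called (adjusted p = 0.144). A second region near the Fcgr1 primers (chr3:96300603-96301119) had p65 scores of 42.6 and 48.7 against 47.1 and 45.3, which overlapped (−0.44, adjusted p = 0.155). The same RNAPII-pS5 scores were recorded at this second region, so they do not tell the 2 regions apart.

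The Tlr2 enhancer at −21.4 kb had 137 and 138 against 121 and 125 (−0.62 ± 0.11, adjusted p = 1.56e-04). Its change was −0.17 without centring and −0.23 with quantile normalization, where it was not called (adjusted p = 0.145 by limma). The Clec4d enhancer had 45.6 and 47.4 against 36.6 and 37.2 (−0.79 ± 0.23, adjusted p = 0.0112). The region at −1211 bp from Nlrp3 had 128 and 123 against 134 and 138, a centred change of −0.34 that passed the threshold but turned into 0.12 without centring, 0.05 with quantile normalization and 0.08 with cyclic loess. The Klf4 enhancer, near a gene that IL-4 is known to induce in macrophages, had 8.38 and 9.44 against 22.7 and 39.9 (1.3 ± 0.39, adjusted p = 0.0146). The Edn1 enhancer had 49.9 and 48.0 against 97.6 and 87.8, and its centred change of 0.46 ± 0.17 did not pass (adjusted p = 0.0532) although the groups were far apart. The regions at the Cd14, Cxcl11, Abca1, Fos and Hbegf enhancers were not called, with p65 changes of −0.48, −0.27, −0.04, −0.25 and 0.04. RNAPII-pS5 was nevertheless lower at the Cxcl11 (−1.09, adjusted p = 0.0407 by limma) and Fos (−1.17, adjusted p = 0.00658) regions. It was not called at the Cd14 and Hbegf regions and not tested at the Abca1 region. At another Tlr2 enhancer, 29.4 kb downstream, a peak was present only in both ctrl/LPS libraries, at 3.27 and 5.99.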

How the data were processed

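p65, RNAPII-pS5, RNAPII-pS2, PU.1, p300 and H3K27Ac ChIP-seq lists of macrophages were used. Per the labels and the submitters' processing notes, the authors aligned reads to mm10 with BWA 0.7.10, handled them with SAMtools 0.1.19, called peaks with MACS2 2.0.10 and annotated them with HOMER 4.2. The deposited peak scores are on a −log10 scale, of p or q values (not stated which; read from the values), and up to 0.127% of p65 peaks score under 2. The deposited H3K27Ac values are HOMER normalized tags, a coverage signal. No input control is stated. Reads were not used here, so depth, counting intervals and fragment effects are unknown, and the number of peaks stands beside each result. Chromatin was cross-linked with DSG and formaldehyde. The study names the replicates of each group as biological.

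Peaks of compared libraries were merged where they overlapped by at least 1 bp, and a region took its highest score. Log2 scores were centred on each library's median over features with a peak in every library and tested with limma 3.58.1 (eBayes with trend, R 4.3.3), called at a Benjamini-Hochberg adjusted p of at most 0.05. The numbers of the replicates did not pair the libraries (correlation of deviations −0.01), so no block was used. Motifs were read from the mm10 genome with Python 3.11.15. Named regions and genes are the 10 with the smallest p in each direction whose groups do not overlap, the 5 highest group-only regions, up to 4 called members per list by smallest p, and the enhancers with primers. The members and lists were chosen with earlier results of these data known. Alternatives covered scaling, spread, thresholds, missing peaks, overlap, assignment to genes and each replicate left out. The script was tested on simulated data. Some results are not reported here.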

Additional observations from a re-analysis of the deposited data

Results flagged for a closer look

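The IL-4 effect on p65 differed between cells with and without LPS, by limma's interaction test over all 8 p65 libraries, at 37 regions in the negative and 28 in the positive direction. Among those with the smallest p in the negative direction, the log2 difference of the IL-4 effects was −1.78 at Rgl1, −2.70 at Slc22a13b-ps, −2.34 at Auh and −1.99 at Ralgds. At all 4 the signal was higher after IL-4 without LPS. At the Slc22a13b-ps region, which was called lower with LPS, scores were 16.7 and 36.1 in ctrl/ctrl and 52.1 and 54.2 in IL-4 PT/ctrl. With LPS they were 159 and 155 in ctrl/LPS and 72.8 and 71.3 in IL-4 PT/LPS. In the positive direction, the difference was 2.42 at Nek6, 3.03 at Mob3c, 1.77 at Tyk2, 1.97 at Enpp4 and 2.03 at Slc28a3. At Mob3c, scores of 30.6 and 26.2 in ctrl/ctrl fell to 8.02 and 7.08 in IL-4 PT/ctrl, while those with LPS were 15.3 and 12.1 in ctrl/LPS and 41.3 and 40.7 in IL-4 PT/LPS. At Tyk2, the gene of a Janus kinase, they were 44.4 and 45.0, 13.4 and 9.95, 92.3 and 101, and 113 and 120 in the same order.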

How the results depend on the processing

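The numbers of p65 regions and genes called moved with several settings, and direction was set by the scaling for part of the named genes. Regions lower or higher after IL-4 numbered 550 and 3534 without centring, 377 and 427 without the trend of the spread, 3420 and 2334 at an unadjusted p, 1214 and 862 with the upper 50% of peaks, and 3072 and 4611 with a peak in at least 2 libraries and missing ones at the lowest score. Quantile normalization gave 1347 lower regions and a floor 4 times as high gave 11689. Without each library in turn, limma called 1234 to 1621 lower and 628 to 1441 higher regions, where a lone library is assumed to vary like the other group. Genes numbered 166 and 3197 without centring, 32 and 75 without the trend, 756 and 525 without intergenic peaks, and 623 and 394 with peaks within 10 kb of the start site. Cyclic loess gave 949 lower genes, the upper 50% of peaks 854 and the floor 4 times as high 3201, and leaving out a library gave 962 to 1317 lower and 460 to 964 higher.

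Without LPS, quantile normalization gave 76 lower and 88 higher regions, an unadjusted p 438 and 412, and leaving out a library 0 to 171 and 0 to 88. The difference of the IL-4 effects gave 13 negative regions with quantile normalization, 360 and 292 at an unadjusted p, and 7 to 75 and 4 to 78 without a library. At an unadjusted p, RNAPII-pS5 was lower at 943 and higher at 457 regions, and RNAPII-pS2 at 1989 and 1289. Leaving out a library gave 0 to 460 and 0 to 159 for RNAPII-pS5 and 654 to 904 and 428 to 589 for RNAPII-pS2. Regions in 1 group only numbered 705 in ctrl/LPS and 4223 in IL-4 PT/LPS with the upper 50% of peaks, and 1798 to 2973 and 9770 to 13530 without a library.

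Without centring, the log2 change turned above 0 at Nfkb1 (0.40), Nfkb2 (0.28), Nfkbiz (0.070), Il1b (0.012), Il12b (0.11), Ccl5 (0.17), Tlr2 (0.20), Ikbke (0.10), Mefv (0.21), Nlrp3 (0.15), Tgm2 (0.049), Pparg (0.080), Atf3 (0.023), Ptger4 (0.050) and Abca1 (0.22). Of genes not called, Tnf and Il6 also turned above 0 without centring, to 0.64 and 0.51. Nfkbia and Tnfaip3, not called either, became 0.67 and 0.56 without centring, 0.21 and 0.13 with quantile normalization and 0.25 and 0.16 with cyclic loess. The Nlrp3 enhancer region became 0.12, 0.050 and 0.077 in the same order. Without intergenic peaks, Tnfsf15 became −0.33, Ccl24 −0.15 and Nlrp3 0.16, and with peaks within 10 kb, Lpp became 0.080, Tnfsf15 −0.34, Irf4 −0.40 and Ptger4 0.029. The causes were not tested. With quantile normalization, the medians of 6 of 18 gene lists changed sign, and without ctrl/LPS replicate 1, that of 1.

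With the replicate block, 2095 regions were lower and 1501 higher, and 1601 and 963 genes, although replicate numbers did not pair the libraries (correlation of deviations −0.01). Depth limits what the lowest scores can show and is unknown.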
